A study of Rattus norvegicus with 12 samples.

Results

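The miR-29 family was followed in small RNA libraries of rat gastric mucosa. Its members were taken by name, as every row for miR-29a, miR-29b or miR-29c in the deposited count tables, on either arm of the hairpin. This gave 7 of the 649 mature miRNAs in the tables: 3 guides (miR-29a-3p, miR-29b-3p and miR-29c-3p) and 4 passenger arms (miR-29a-5p, miR-29b-5p, miR-29b-1-5p and miR-29c-5p). There were 3 groups of 4 libraries. The XLHZ group and the model group had both received the alkylating mutagen N-methyl-N'-nitro-N-nitrosoguanidine (MNNG) for 24 weeks, and the XLHZ group had in addition received the herbal Xianglianhuazhuo formula for 60 days. The labels describe this rat model of chronic atrophic gastritis as MNNG at 180 µg/ml in the drinking water, 2% sodium salicylate by gavage at 1 ml per 100 g, and 2 days of food alternating with 1 day of fasting. The normal group had no treatment. The sources used here do not give strain, sex or age. No label says whether each library came from its own rat, so the spread behind each p-value may be technical.

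A miRNA hairpin is cut into a duplex, of which one arm, the guide, is usually kept in the silencing complex, while the other, the passenger, is mostly degraded. The guide finds messenger RNAs through its seed, bases 2 to 8 from the 5′ end. The miR-29 guides are best known for repressing collagens, elastin, fibrillins and other matrix genes in fibroblasts, and their loss accompanies fibrosis in several mammalian organs. They also repress DNA methyltransferases in human cells. No messenger RNA was measured here, so target levels are not described.

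The 3 guides are shown first because a shared seed makes them one family, with the seed in capitals. Sequences and positions are RefSeq's for the rat build GRCr8. All 7 members matched that table by name, and the sources used here do not name the build behind the counts.
miR-29a-3p: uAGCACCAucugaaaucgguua
miR-29b-3p: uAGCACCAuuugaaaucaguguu
miR-29c-3p: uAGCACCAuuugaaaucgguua
The guides were identical over their first 9 bases. Of the 693 mature miRNA names in the RefSeq table, 3 had this seed, and all were these guides. Counted from the 5′ end, miR-29c-3p differed from miR-29a-3p by the single substitution C10U. miR-29b-3p differed from miR-29a-3p by C10U, G18A, U21G and A22U and is 1 base longer, with 23 bases against 22. Its last 6 bases, AGUGUU, are a motif that directs nuclear import of miR-29b in human cells, and 2 of the 693 names end in them. Because miR-29a-3p and miR-29c-3p are set apart by 1 base, how their reads divide depends on the mismatches allowed in counting, which the sources used here do not give.

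The guides come from 4 hairpins in 2 tight pairs. The hairpins are shown because they give the locus at which each arm is annotated, with the guide in capitals.
Mir29a (chr4:60617955-60618042, minus strand): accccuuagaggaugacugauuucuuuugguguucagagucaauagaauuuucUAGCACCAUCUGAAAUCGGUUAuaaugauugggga
Mir29b1 (chr4:60618334-60618414, minus strand): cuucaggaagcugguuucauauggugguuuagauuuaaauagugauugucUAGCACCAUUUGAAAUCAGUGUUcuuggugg
Mir29b2 (chr13:109098831-109098911, plus strand): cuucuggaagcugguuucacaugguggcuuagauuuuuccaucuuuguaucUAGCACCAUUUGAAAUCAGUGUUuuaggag
Mir29c (chr13:109099359-109099446, plus strand): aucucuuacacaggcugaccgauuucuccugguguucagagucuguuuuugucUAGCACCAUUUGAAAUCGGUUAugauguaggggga
On chromosome 4, Mir29a and Mir29b1 lie 291 bases apart, and on chromosome 13, Mir29b2 and Mir29c lie 447 bases apart. The guide miR-29b-3p is the same in Mir29b1 and Mir29b2, so its counts cannot be assigned to a locus. The passenger arms are annotated by locus, miR-29b-1-5p in Mir29b1 and miR-29b-5p in Mir29b2. Whether their counts keep to these loci depends on the mismatches allowed in counting, which are not given. RefSeq also annotates miR-3556a, miR-3587 and miR-3556b on the opposite strand of Mir29a, Mir29b1 and Mir29c. They were not analysed here, and the sources used here do not say whether counting used strand.

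Total counts per library ran from 9095260 to 11556061. Levels below are CPM, counts scaled to a common library size, with TMM factors that align the bulk of miRNAs between libraries. Mature miRNAs are of nearly one length, so levels were not divided by length. As markers of the tissue, epithelial miR-375-3p stood at 11130 to 16720 CPM in XLHZ, 5229 to 13077 CPM in model and 13637 to 19633 CPM in normal libraries. The 4 arms of the smooth muscle miRNAs miR-143 and miR-145 summed to 97611 to 277213 CPM in XLHZ, 145151 to 403505 CPM in model and 133246 to 219379 CPM in normal libraries. All 4 model libraries lay below all 4 normal ones for miR-375-3p, which did not pass (adjusted p = 0.605, edgeR). The wider epithelial miR-200 family overlapped between groups. Its 9 arms summed to 73136 to 85171 CPM in XLHZ, 54147 to 85725 CPM in model and 68204 to 80518 CPM in normal libraries. Their median log2 fold change in model against normal was -0.029, beside -0.0072 for all miRNAs. The part of these markers in the results below was not tested. In bulk tissue, fewer cells of a type and less RNA per cell cannot be told apart.

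The guides were among the most abundant miRNAs of the mucosa. Together they took 5.17 to 7.96% of all counts. miR-29a-3p (rno-miR-29a-3p in the tables) averaged 42207 ± 1995 CPM over the 12 libraries (SD) and ranked 6th of 648 miRNAs in both tables joined. miR-29c-3p followed at 14633 ± 2139 CPM, and miR-29b-3p at 9007 ± 1149 CPM. The passengers were far lower, with miR-29c-5p at 167 ± 16.9 CPM, miR-29a-5p at 67.9 ± 7.78 CPM and miR-29b-5p at 9.15 ± 1.32 CPM. miR-29b-1-5p had a single count in 1 XLHZ library and 0 in the other 11 libraries, where 3 counts would have been 0.260 to 0.302 CPM. In this order, neighbours did not overlap between libraries except miR-29c-3p and miR-29b-3p, whose ranges were 10273 to 17878 and 7004 to 10980 CPM. Within every library, however, miR-29c-3p had 1.47 to 1.76 times the counts of miR-29b-3p.

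No miR-29 arm passed in the comparison of model with normal mucosa. miR-29a-3p measured 41212.5, 41845, 41965 and 40741 CPM in model libraries 1 to 4, against 41914, 46914, 42743 and 38588 CPM in normal libraries 1 to 4. The model libraries all lay inside the normal range. The ratio was 0.971, with a 95% interval of 0.844 to 1.12 (log2 fold change -0.042, SE 0.090). It did not pass the quasi-likelihood test of edgeR, with p-values adjusted by Benjamini-Hochberg (adjusted p = 0.935).

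miR-29b-3p measured 9220.3, 9064, 8144 and 10546 CPM in model libraries, against 9659, 8766, 8281 and 7004 CPM in normal libraries (ratio 1.09, 95% interval 0.880 to 1.36, adjusted p = 0.803 in edgeR). miR-29c-3p measured 13904, 14461, 13190.2 and 17878 CPM in model libraries, against 14607, 14746, 13349 and 10273 CPM in normal libraries (ratio 1.12, interval 0.881 to 1.42, adjusted p = 0.783). Both guides overlapped between the groups, with their highest value in model library 4 and their lowest in normal library 4. Model library 3, the lowest of its group for both, also had the highest level of miR-21-5p, a miRNA induced in inflammation and fibrosis, at 92544 CPM, against 31621 to 38330 CPM in normal libraries. Normal library 4, lower still for both guides, had 32200 CPM of miR-21-5p. A link between the guides and miR-21-5p was not tested.

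The passenger arms had small positive differences. miR-29c-5p measured 175, 194, 167 and 185 CPM in model libraries, against 153, 160.2, 156 and 148 CPM in normal libraries. All 4 model libraries lay above all 4 normal ones, but the log2 fold change of 0.22 (SE 0.15) did not pass (adjusted p = 0.662, edgeR), and the groups overlapped with upper-quartile factors or library totals in place of TMM. miR-29a-5p measured 66.1, 70.5, 80.9 and 80.04 CPM in model libraries, against 61.01, 67.7, 63.1 and 52.9 CPM in normal libraries. Its groups overlapped in that model library 1 lay below normal library 2 (log2 fold change 0.28, SE 0.17, adjusted p = 0.642, edgeR). With upper-quartile factors they did not overlap, at 66.2 to 85.1 CPM in model and 50.5 to 65.5 CPM in normal libraries. miR-29b-5p measured 7.50, 8.52, 9.20 and 9.72 CPM in model libraries and 9.09, 7.89, 6.94 and 9.07 CPM in normal libraries (log2 fold change 0.079, SE 0.19, adjusted p = 0.937, edgeR).

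Of the 6 arms tested, 0 passed in edgeR and 0 had an unadjusted p under 0.05, against 0.248% and 7.2% of the 403 miRNAs tested. DESeq2 called 0 of 6 as well, with 2 at an unadjusted p under 0.05, miR-29a-5p and miR-29c-5p. The share of all miRNAs at that unadjusted level in DESeq2 was not counted, so these 2 cannot be set against it. Of the 403 miRNAs, DESeq2 passed 5 as higher and 2 as lower at an adjusted p under 0.05. For limma-trend, 0 of the 6 arms passed and 0 had an unadjusted p under 0.05. Of the 403 miRNAs, limma-trend passed 1 as higher and 0 as lower at an adjusted p under 0.05. Groups did not overlap for 1 of the 6 arms, against 3.47% of all miRNAs. The median log2 fold change of the 6 arms was 0.15, and that of all miRNAs tested was -0.0072. Over the 6 arms the 95% intervals of the ratio ran from 0.786 at the lowest to 1.58 at the highest.

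**Figure D1:**
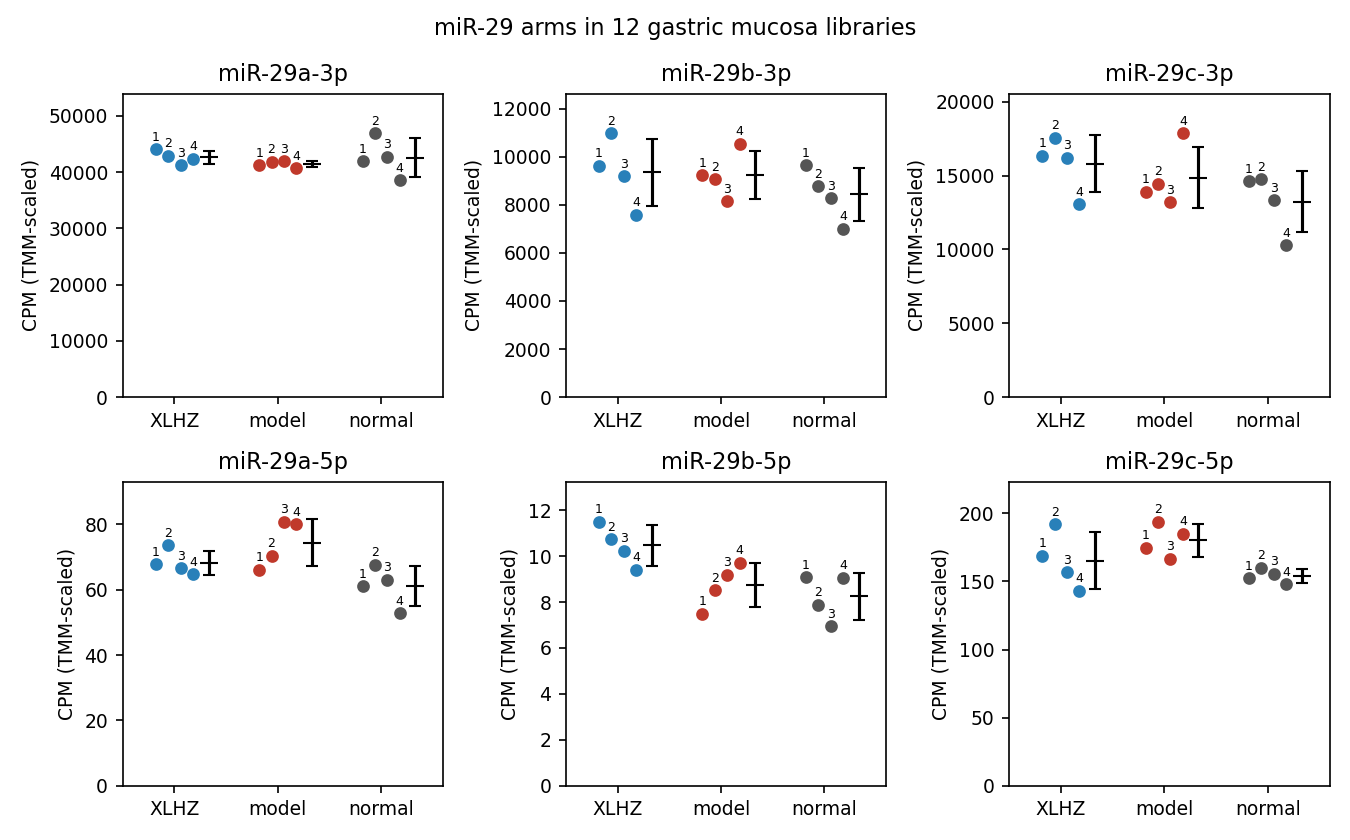
CPM scaled by TMM factors of the 6 miR-29 arms tested, in XLHZ, model and normal libraries; each point is 1 library, numbered as in its group, and the bar with caps is the mean ± SD (n = 4). The groups overlap for each of the 3 guides; the model libraries of miR-29c-5p and the XLHZ libraries of miR-29b-5p lie above the normal ones.

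The comparison of XLHZ with model mucosa asked about exposed mucosa with and without the formula, and again no arm passed. miR-29a-3p measured 44046, 42909, 41242.5 and 42361 CPM in XLHZ libraries 1 to 4, against the model values above, which reach 41965 CPM at most. XLHZ library 3 was inside the model range and the other XLHZ libraries were above it. The ratio was 1.02 (95% interval 0.901 to 1.14, log2 fold change 0.022, SE 0.076, adjusted p = 0.955, edgeR). miR-29b-3p measured 9632, 10980, 9197 and 7588 CPM in XLHZ libraries, which reached above and below the 8144 to 10546 CPM of model libraries. The ratio in the edgeR fit was 0.998 (interval 0.799 to 1.25, adjusted p = 0.993). miR-29c-3p measured 16342.5, 17566, 16221 and 13063 CPM in XLHZ libraries, against 13190.2 to 17878 CPM in model libraries (ratio 1.05, interval 0.845 to 1.30, adjusted p = 0.914).

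Among the passengers, miR-29b-5p measured 11.5, 10.8, 10.2 and 9.41 CPM in XLHZ libraries, against 7.50 to 9.72 CPM in model libraries. The log2 difference was 0.24 (SE 0.17), which did not pass (adjusted p = 0.743, edgeR). For miR-29a-5p and miR-29c-5p alike it was -0.14 (SE 0.16), with an adjusted p of 0.824 in edgeR. Their ranges were 64.8 to 73.6 CPM in XLHZ and 66.1 to 80.9 CPM in model libraries for miR-29a-5p, and 143 to 192 CPM in XLHZ and 167 to 194 CPM in model libraries for miR-29c-5p. Of the 6 arms, 0 passed, 0 had an unadjusted p under 0.05 and 0 had groups that did not overlap, against 0.249%, 4.23% and 1.24% of the 402 miRNAs tested. DESeq2 and limma-trend also called 0 of 6, with 0 at an unadjusted p under 0.05. Of the 402 miRNAs, each method passed 1 as higher and 0 as lower at an adjusted p under 0.05. The share of all miRNAs at the unadjusted level was not counted for these methods. The median log2 fold change of the arms was 0.0098, beside 0.0057 for all miRNAs, and the 95% intervals of the ratio ran from 0.705 to 1.54.

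Formula-treated mucosa was also set against normal mucosa. The XLHZ libraries are those of the previous comparison and the normal libraries those of the first, so the 3 comparisons are not independent. miR-29a-3p averaged 42640 ± 1166 CPM in XLHZ and 42540 ± 3424 CPM in normal libraries (SD, n = 4 each). The edgeR fit, with TMM factors of its own 8 libraries, gave a ratio of 0.982 (95% interval 0.884 to 1.09, adjusted p = 0.921). The means, scaled over all 12 libraries, differ slightly in the other direction. miR-29b-3p averaged 9349 ± 1398 CPM in XLHZ and 8427 ± 1107 CPM in normal libraries (ratio 1.09, interval 0.890 to 1.32, adjusted p = 0.741). For miR-29c-3p the means were 15798 ± 1922 CPM in XLHZ and 13244 ± 2078 CPM in normal libraries. XLHZ library 4, at 13063 CPM, was inside the normal range and the other XLHZ libraries were above it (log2 fold change 0.22, SE 0.13, adjusted p = 0.621).

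miR-29b-5p had the smallest unadjusted p of the tested arms over the 3 edgeR fits. It had 119, 111, 110 and 111 raw counts in XLHZ libraries 1 to 4, against 91, 89, 78 and 108 in normal libraries 1 to 4. After scaling, all 4 XLHZ libraries, at 9.41 to 11.5 CPM, lay above all 4 normal ones, at 6.94 to 9.09 CPM, and they did so under each of the 4 scalings tried. The log2 fold change was 0.31 (SE 0.16, unadjusted p = 0.0747, adjusted p = 0.567, edgeR), so the difference did not pass. On library totals miR-29a-5p did not overlap either, at 67.4 to 77.1 CPM in XLHZ and 56.5 to 67.0 CPM in normal libraries. With TMM factors its groups overlapped, and the log2 difference was 0.13 for miR-29a-5p (SE 0.12, adjusted p = 0.73) and 0.069 for miR-29c-5p (SE 0.12, adjusted p = 0.846). Of the 6 arms, 0 passed and 0 had an unadjusted p under 0.05, against 1.5% and 8.73% of the 401 miRNAs tested. DESeq2 and limma-trend also called 0 of 6, with 0 at an unadjusted p under 0.05. Of the 401 miRNAs, DESeq2 passed 4 as higher and 3 as lower, and limma-trend 4 and 2, at an adjusted p under 0.05. The share of all miRNAs at the unadjusted level was not counted for these methods. Groups did not overlap for 1 of 6 arms in TMM-scaled levels, against 6.23% of all miRNAs. The median log2 fold change was 0.12 over the arms and -0.0040 over all miRNAs, and the 95% intervals of the ratio ran from 0.868 to 1.58.

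**Figure D2:**
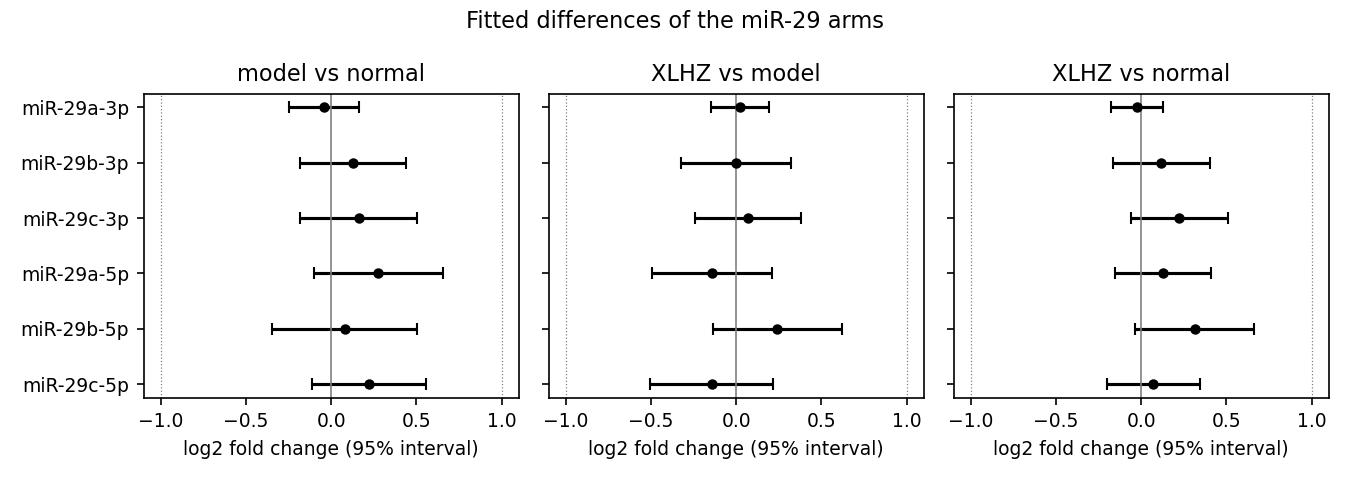
Log2 fold change of each tested miR-29 arm in the 3 comparisons, first-named group over second, from the edgeR fit over all miRNAs; bars are 95% intervals, the solid line marks 0 and the dotted lines mark a 2-fold difference either way. Each interval includes 0 and none reaches a 2-fold difference.

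Because the members share a library, ratios between them do not depend on how libraries were scaled. miR-29a-3p made up 63.0 ± 3.05% of the 3 guides' counts in XLHZ, 63.3 ± 3.13% in model and 66.4 ± 2.35% in normal libraries (SD, n = 4 each). miR-29c-3p made up 23.2 ± 1.76% in XLHZ, 22.6 ± 2.23% in model and 20.5 ± 1.55% in normal libraries, and miR-29b-3p made up 13.7 ± 1.36% in XLHZ, 14.1 ± 0.991% in model and 13.1 ± 1.01% in normal libraries. These shares overlapped between groups and were not tested. The lowest share of miR-29a-3p was 58.9%, in model library 4, and the highest was 69.1%, in normal library 4.

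The arm ratio, guide counts over passenger counts, set the hairpins apart. miR-29b-3p had 772 to 1229 counts for each count of miR-29b-5p, although its guide counts add up 2 loci. miR-29a-3p had 509 to 729 per count of miR-29a-5p, and miR-29c-3p had 69.3 to 103 per count of miR-29c-5p. The passenger thus made up 0.137 to 0.196% of miR-29a counts and 0.959 to 1.42% of miR-29c counts. Among 125 hairpin names with both arms at a mean of at least 10 counts, miR-29b, miR-29a and miR-29c ranked 9th, 11th and 44th in how unequal their arms were. The counts of the annotated miR-29b passengers were also unequal. miR-29b-5p, annotated in Mir29b2, had 1171 counts over the 12 libraries and miR-29b-1-5p, annotated in Mir29b1, had 1.

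The annotated passengers of the miR-29b hairpins start at different points, so they are shown with bases 2 to 8 in capitals.
miR-29b-1-5p: uUUCAUAUggugguuuagauuu
miR-29b-5p: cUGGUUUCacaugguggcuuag
miR-29b-5p starts at base 11 of its hairpin and miR-29b-1-5p at base 15 of its own. Over the 22 bases of miR-29b-5p the hairpins have 20 bases in common. Whether reads of a Mir29b1 passenger with another start were counted was not tested.

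For miR-29a, the arm ratio was lower in exposed than in normal mucosa, with no overlap. It was 650, 583, 619 and 653 in XLHZ libraries 1 to 4, 623, 594, 519 and 509 in model libraries, and 687, 693, 678 and 729 in normal libraries. All 8 exposed libraries lay below all 4 normal ones. The means were 626 ± 32.8 in XLHZ, 561 ± 56.1 in model and 697 ± 22.6 in normal libraries (SD, n = 4 each). The difference is described without a test, and neither arm passed by itself.

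Arm ratios did not overlap between groups for 1 of 3 miR-29 names in model against normal and for 1 of 3 in XLHZ against normal, in both cases miR-29a, against 4% of the 125 names in each comparison. For XLHZ against model this was 0 of 3, against 1.6%. The comparisons with normal share its libraries, and the names separated from normal in both were not counted. The miR-29b ratio averaged 891 ± 94.9 in XLHZ, 1066 ± 141 in model and 1035 ± 183 in normal libraries. The miR-29c ratio averaged 95.7 ± 5.65 in XLHZ, 82.4 ± 9.67 in model and 85.7 ± 11.7 in normal libraries. Both overlapped in every comparison.

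**Figure D3:**
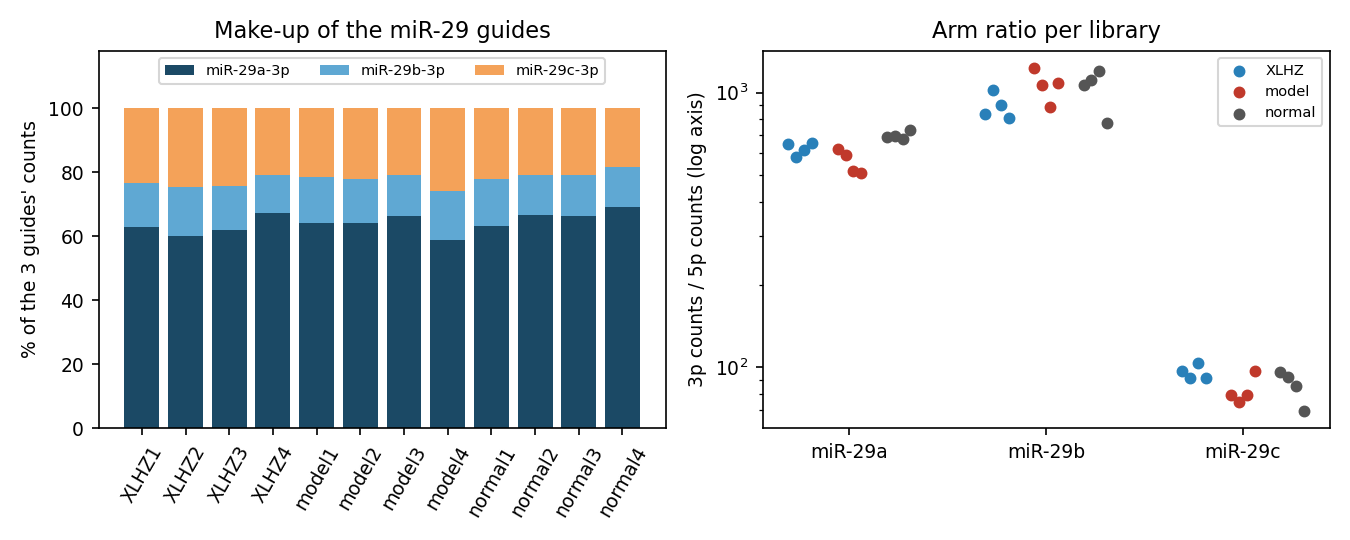
Left, percent of the counts of the 3 miR-29 guides held by each guide in the 12 libraries, labelled by group and number; right, counts of the 3p arm over counts of the 5p arm on a log axis, with 1 point per library. miR-29a-3p holds 58.9 to 69.1% throughout, and the normal libraries of miR-29a have the highest arm ratios of that hairpin, 678 to 729.

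Across libraries, miR-29b-3p and miR-29c-3p varied together. With TMM scaling miR-29a-3p did not follow them closely, and how closely it did depended on the scaling. Of 15 pairs among the 6 arms, compared as log2 CPM over 12 libraries, miR-29b-3p and miR-29c-3p had the largest correlation. Pearson's r was 0.93 (permutation p = 1e-05, the smallest that 100000 permutations can give, adjusted p = 0.00015) and Spearman's rho was 0.88 (permutation p = 0.00034, adjusted p = 0.0051). Without normal library 4 and XLHZ library 4, the farthest from the median, r was 0.89, and with each group's mean removed it was 0.94. Leaving out any 1 library gave 0.90 to 0.94.

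The pairs with miR-29a-3p were weaker. Its r was 0.26 with miR-29b-3p (permutation p = 0.414, adjusted p = 0.559) and 0.40 with miR-29c-3p (permutation p = 0.195, adjusted p = 0.366). Spearman's rho was 0.070 (permutation p = 0.835) and 0.21 (permutation p = 0.513). Without normal libraries 2 and 4 these r were -0.068 and -0.031. With RLE factors they were 0.14 and 0.27, with upper-quartile factors 0.59 and 0.71, and on library totals 0.65 and 0.68. Without normal library 4 alone they were -0.14 and -0.049, and the first was 0.43 without normal library 2 and 0.40 without model library 4. The highest value of the second with 1 library left out was 0.57. The ratio of miR-29c-3p to miR-29b-3p, which needs no scaling, also varied least: the SD of the log2 ratio over 12 libraries was 0.083 for miR-29c-3p over miR-29b-3p, 0.18 for miR-29a-3p over miR-29b-3p and 0.20 for miR-29a-3p over miR-29c-3p. Of the other pairs, only miR-29a-5p with miR-29c-5p passed, and only by rank (rho 0.77, permutation p = 0.00469, adjusted p = 0.0352; r 0.66, permutation p = 0.0167, adjusted p = 0.081). Their r was 0.37 with each group's mean removed and 0.76 without normal library 4 and model library 3.

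**Figure D4:**
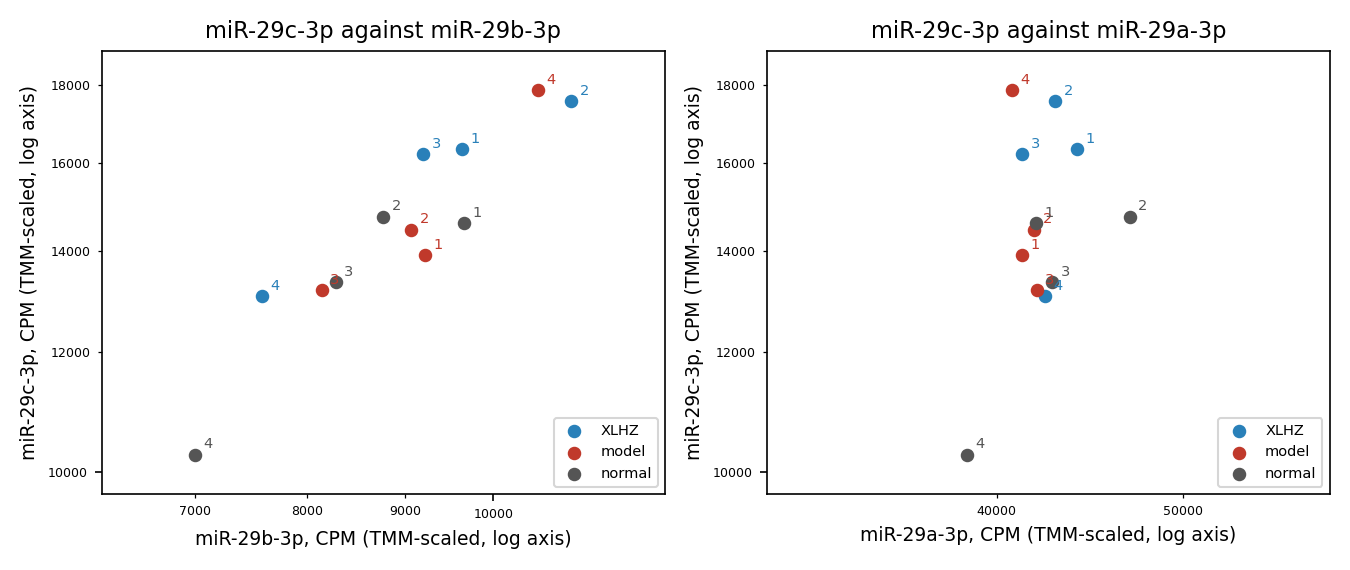
CPM scaled by TMM factors of miR-29c-3p against miR-29b-3p (left) and against miR-29a-3p (right), on log axes, with 1 numbered point per library and both horizontal axes spanning the same fold range. Points follow a line on the left (r 0.93 on the log2 scale), while on the right miR-29a-3p stays between 38588 and 46914 CPM.

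miR-29a-3p was one of the steadiest abundant miRNAs of the data. Its coefficient of variation over the 12 libraries was 4.73%, and 3 of the 77 miRNAs with a mean of at least 1000 CPM had a smaller one. Their median was 17.2%. miR-29c-3p and miR-29b-3p had 14.6% and 12.8%. On library totals the value for miR-29a-3p was 10.7%, with 9 of 77 smaller. The muscle miRNA miR-143-3p took 29.2 and 25.1% of counts in model libraries 2 and 3 and 9.39 to 22.98% in the other 10 libraries. In model libraries 2 and 3 the guides together took 5.46 and 5.17% of all counts, the lowest of the 12 libraries. After TMM scaling they summed to 65369 and 63299 CPM there, inside the 55865 to 70426 CPM of normal libraries. The part of miR-143-3p in the lower share was not tested.

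The miRNAs most like each guide were those with the highest r of log2 CPM over 12 libraries among 144 others with a mean above 100 CPM. They are given without a test because they were picked for that r. For miR-29a-3p the 5 highest were weak, with miR-30b-5p at 0.42, miR-127-3p and miR-30a-5p at 0.37, let-7i-3p at 0.35 and miR-140-3p at 0.33. Without normal library 4, r with miR-29a-3p was -0.29 for let-7i-3p and 0.16 for miR-127-3p. For miR-29b-3p and miR-29c-3p, listed the same way after their values were seen, the 5 were the same miRNAs: miR-101a-3p (r 0.79 and 0.68), miR-301a-3p (0.72 and 0.70), let-7i-3p (0.71 and 0.74), miR-101b-3p (0.68 and 0.71) and miR-30e-5p (0.68 and 0.75). Without normal library 4, r of let-7i-3p was 0.48 with miR-29b-3p and 0.39 with miR-29c-3p.

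Other miRNAs tied to matrix and fibrosis were read from the same fits. Of 16 other miRNAs reported to restrain fibrosis, such as the miR-30 family, miR-26a and miR-101, all were tested, and in each of the 3 comparisons 0 passed as higher and 0 as lower. Their median log2 fold change was -0.0010 in model against normal, 0.0036 in XLHZ against model and 0.0069 in XLHZ against normal. The most abundant, miR-26a-5p, averaged 54830 ± 2086 CPM in XLHZ, 57164 ± 6640.3 CPM in model and 57159.6 ± 2881 CPM in normal libraries (SD, n = 4 each). Of 15 miRNAs reported to promote fibrosis or to follow TGF-β, 11, 11 and 12 were tested in the comparisons in that order, and 0 passed in either direction. Their medians were 0.046, -0.19 and -0.066. miR-21-5p, the most abundant of them, averaged 38433 ± 6956 CPM in XLHZ, 50045.5 ± 28382 CPM in model and 35115.5 ± 3708 CPM in normal libraries. These lists are not separate from the others described. The restraining list holds miR-200a-3p and miR-200b-3p of the miR-200 family, and the promoting list holds miR-199a-5p, also a fibroblast miRNA below.

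Fibroblast miRNAs, the cells in which miR-29 is best studied, were also read as a group. miR-199, miR-214 and miR-140 arms summed to 10581 to 12898 CPM in XLHZ, 11032 to 15163 CPM in model and 12646 to 13019 CPM in normal libraries, overlapping throughout. Of the 5 tested, 0 passed in any comparison, and the median log2 fold change was 0.016 in model against normal, -0.070 in XLHZ against model and -0.061 in XLHZ against normal.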

How the data were processed

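Small RNA libraries were made with a QIAseq miRNA kit from total RNA with an integrity number above 7, per the labels' protocols. The submitters' processing notes list Bowtie and DESeq and give no versions. Genome build, counting rule and handling of molecular identifiers: not given in the sources used here. Raw counts per mature miRNA were deposited by the authors in 2 tables, of 639 and 632 rows. The deposited CPM columns equal count over column total within 5e-05 and served for that check only. Of 622 shared miRNAs, 621 had the same model counts in both tables, including all 6 miR-29 rows present in both. The tables were joined without the exception, miR-20b-3p, with a missing row taken as 0, and miR-29b-1-5p has a row in 1 table. Libraries of one group differed beyond sampling noise (the lowest chi-square per degree of freedom was 172).

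Each comparison was fitted on its 8 libraries over all miRNAs with edgeR 4.0.16 in R 4.3.3 (quasi-likelihood test with TMM factors; the minimum count in filterByExpr was 10). Adjustment was Benjamini-Hochberg across the miRNAs of each fit, with 0.05 as the threshold. The filter kept 6 of 7 members in each comparison. Standard errors are the log2 fold change over the square root of F. Levels use TMM factors over all 12 libraries, and log2 CPM a prior count of 2. Ratios and log2 fold changes between groups come from the fits, with factors of the 8 libraries compared. They can therefore differ from ratios of mean levels, also in direction when close to equality. Arm ratios on the log2 scale use a pseudocount of 0.5. Intervals at 95% are confidence intervals of the difference between groups. They were built from the standard errors, which rest on the spread between libraries.

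Members and lists were chosen with earlier results of these data known. All members are described, with the 5 miRNAs most like miR-29a-3p and the most abundant of each list. Alternatives were other scalings and filters, DESeq2 1.42.0, limma-trend (limma 3.58.1), a robust fit, a joint fit of the 12 libraries, a block for replicate number, each library left out, and model libraries 2 and 3 left out. Scalings and left-out libraries for correlations and coefficients of variation were added after seeing the data. The fit was tested on simulated counts with changes of at least 2-fold, larger than any fitted for the miR-29 arms. Recovery of smaller changes was not simulated.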

Additional observations from a re-analysis of the deposited data

How the results depend on the processing

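The number of miR-29 arms that passed was 0 in every comparison under each of the alternatives run. Few miRNAs of any kind passed in these fits, at most 5 as higher and 3 as lower, of 326 to 639 tested. Over 354 alternative fits of single arms, the lowest adjusted p was 0.288. It came from miR-29c-3p in XLHZ against normal with the replicate number as a block (log2 fold change 0.23, SE 0.064, unadjusted p = 0.012, edgeR). Without the block the SE was 0.13 and the unadjusted p was 0.112 (edgeR). Deviations from the group means correlated at -0.43 to 0.51 between same-numbered libraries, and 7 of 12 pairs were above 0.1. Of the 12 libraries, 2 correlated best with their own number in both other groups. Correlations between differently numbered libraries were not listed, so these values cannot decide whether the numbers pair the libraries. With the block, the log2 fold change of miR-29a-3p was -0.024 in XLHZ against normal, and the number of miR-29 arms that passed stayed at 0. The direction held in 328 of the 354 fits and turned in 26, each at a log2 fold change of at most 0.14 in size. In model against normal it turned for miR-29a-3p with upper-quartile factors (0.0072) and for miR-29b-5p on library totals (-0.037). In XLHZ against model it turned for miR-29a-3p with RLE factors and with DESeq2 (-0.0011 in both) and for miR-29b-3p with upper-quartile factors (0.0081), on library totals (0.14), with no count filter (0.035) and with all 12 libraries in 1 fit (0.0074). There it also turned on library totals for miR-29a-5p (0.022) and miR-29c-5p (0.019), and without model libraries 2 and 3 for miR-29c-3p (-0.060). In XLHZ against normal it turned for miR-29a-3p with upper-quartile factors (0.051), on library totals (0.034) and in 1 fit of all libraries (0.00095). Leaving out 1 library at a time gave miR-29a-3p -0.058 to 0.049 in model against normal, -0.010 to 0.028 in XLHZ against model and -0.057 to 0.023 in XLHZ against normal. In XLHZ against model it gave miR-29b-3p -0.099 to 0.084 and miR-29c-3p -0.023 to 0.18, and in XLHZ against normal it gave miR-29c-5p -0.025 to 0.14. The cause of these turns was not tested. Library totals moved the median of all miRNAs to -0.12 in model against normal and to 0.17 in XLHZ against model. The r of the miRNAs most like each guide ran, under other scalings, from 0.12 to 0.90 for miR-29a-3p, 0.66 to 0.91 for miR-29b-3p and 0.68 to 0.91 for miR-29c-3p. With 1 library left out at a time it ran from -0.29 to 0.55 for miR-29a-3p, 0.48 to 0.86 for miR-29b-3p and 0.39 to 0.85 for miR-29c-3p. The 75 to 119 counts of miR-29b-5p per library limit its precision.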
